A study of Gallus gallus with 4 samples.

Results

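The genes described here encode the soluble machinery of protein synthesis in chick retinal cultures: translation factors and the aminoacyl-tRNA synthetases. They were taken by name from the array, as probes whose design accession is a RefSeq transcript of a gene with a symbol starting EIF or EEF, or of a synthetase symbol ending in ARS, ARS1 or ARS2. This gave 44 genes of 5382 named on the array, with 116 probes, and each gene is represented by its brightest probe. The chicken gene table holds 91 such symbols. The other 47, among them EIF4E, EIF4EBP1, EIF4G1, EEF1A1 and EEF2K, were not analysed here. Of the 44 genes, 24 are EIF symbols, 5 are EEF symbols and 15 are synthetases. The rule picks genes by name and uses no measured value for that, though it was set with earlier results of these data known. The probe of each gene was picked by its mean signal over the arrays of both groups.

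The cultures were made from neural retina of day 8 chick embryos (stage 33), separated into cells by trypsin and kept in medium with serum. One group received DAPT at 10 µM, an inhibitor of the protease γ-secretase that frees the active part of Notch. The control group received its solvent, DMSO, in equal volume. Both ran from culture day 2 to day 12, when total RNA was taken, with the medium renewed every 2 days. Each group had 2 samples, with 1 one-colour array per sample. Whether the samples are separate embryos or platings is not given in the labels, so every p-value here is set against sample-to-sample spread that may be technical.

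Initiation factors load the initiator tRNA and the messenger onto the small ribosomal subunit and find the start codon. Elongation factors bring charged tRNAs to the ribosome and move it along the messenger. Synthetases attach each amino acid to its tRNA, with separate enzymes for the cytosol and the mitochondrion in most cases. The best known control point is the phosphorylation of eIF2α by stress kinases, which lowers general initiation and raises translation of the transcription factor ATF4.

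The signals of several sets of cell type markers differed widely between the groups. The summed signal of 4 fibroblast genes was 127 and 152 in DMSO against 12.0 and 11.3 in DAPT, in multiples of each array's 75th percentile of signal, and all 4 fell. That of 8 lens genes was 10.4 and 7.92 in DMSO against 269 and 292 in DAPT, and 7 of the 8 rose. As markers of the labelled tissue, 4 photoreceptor genes were well above background on all 4 arrays, and all 4 fell, with summed signals of 26.2 and 24.1 in DMSO against 9.26 and 10.8 in DAPT. Of 5 amacrine and horizontal cell genes 4 fell and 1 rose, and of 4 ganglion cell genes 2 rose and 1 fell. Of 4 Müller glia genes 1 rose and 1 fell, with summed signals of 175 and 171 in DMSO against 221 and 229 in DAPT. The gene that fell, AQP4 (log2 fold change -4.48), was well above background on both DMSO arrays but only 1 DAPT array. Of 5 tested pigment epithelium genes 4 rose. The summed signals of that list were low, at 0.366 and 0.291 in DMSO, and were higher in DAPT. Among these 5, TYR (3.25) was well above background on both DAPT arrays but only 1 DMSO array. AQP4 and TYR thus entered the test through 1 group only. Of the proliferation genes 4 of 5 rose, with summed signals of 19.8 and 20.9 in DMSO against 34.5 and 34.2 in DAPT. Of 2 endothelial genes on the array, CDH5 was not well above background on any array, and KDR was on all 4, with a log2 fold change of -0.93 that did not pass. The part of these shifts in the values below was not tested. In such bulk RNA, fewer cells of a type and less RNA per cell cannot be told apart.

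Few translation factor and synthetase genes passed the test between DAPT and DMSO. EIF3L, EIF2D and EIF2A rose, 3 of 44 at an adjusted p under 0.05 in limma over all 32288 features, and 0 fell. Among all features 12.4% were higher and 13.1% lower by the same rule, and among 5045 genes with a symbol 14.2% and 13.8%. At an unadjusted p under 0.05, 13 members were higher and 2 were lower, together 34.1% of the members against 38.8% of all features. By this rule 6609 of all 32288 features were higher and 5928 lower. An estimate of at least 2-fold was seen for 1 of 44 members, the dim EEF1B2 probe, against 12.6% of all features. The 95% interval of the difference lay within a 2-fold change in either direction for 42 of 44 members and for 70.5% of all features. Within a 1.5-fold change either way, the counts were 22 of 44 and 36.7%. The median size of the log2 fold change, whatever its sign, was 0.26 for the members and 0.28 for all features. The median log2 fold change was 0.21 over the members and 0.061 over all features, and 33 of 44 members had an estimate above 0, against 56.9% of all features. Across the alternatives 28 to 34 members were above 0, with the fewest under quantile normalization. The groups of arrays did not overlap for 28 of 44 members and for 65.6% of all features.

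**Figure D1:**
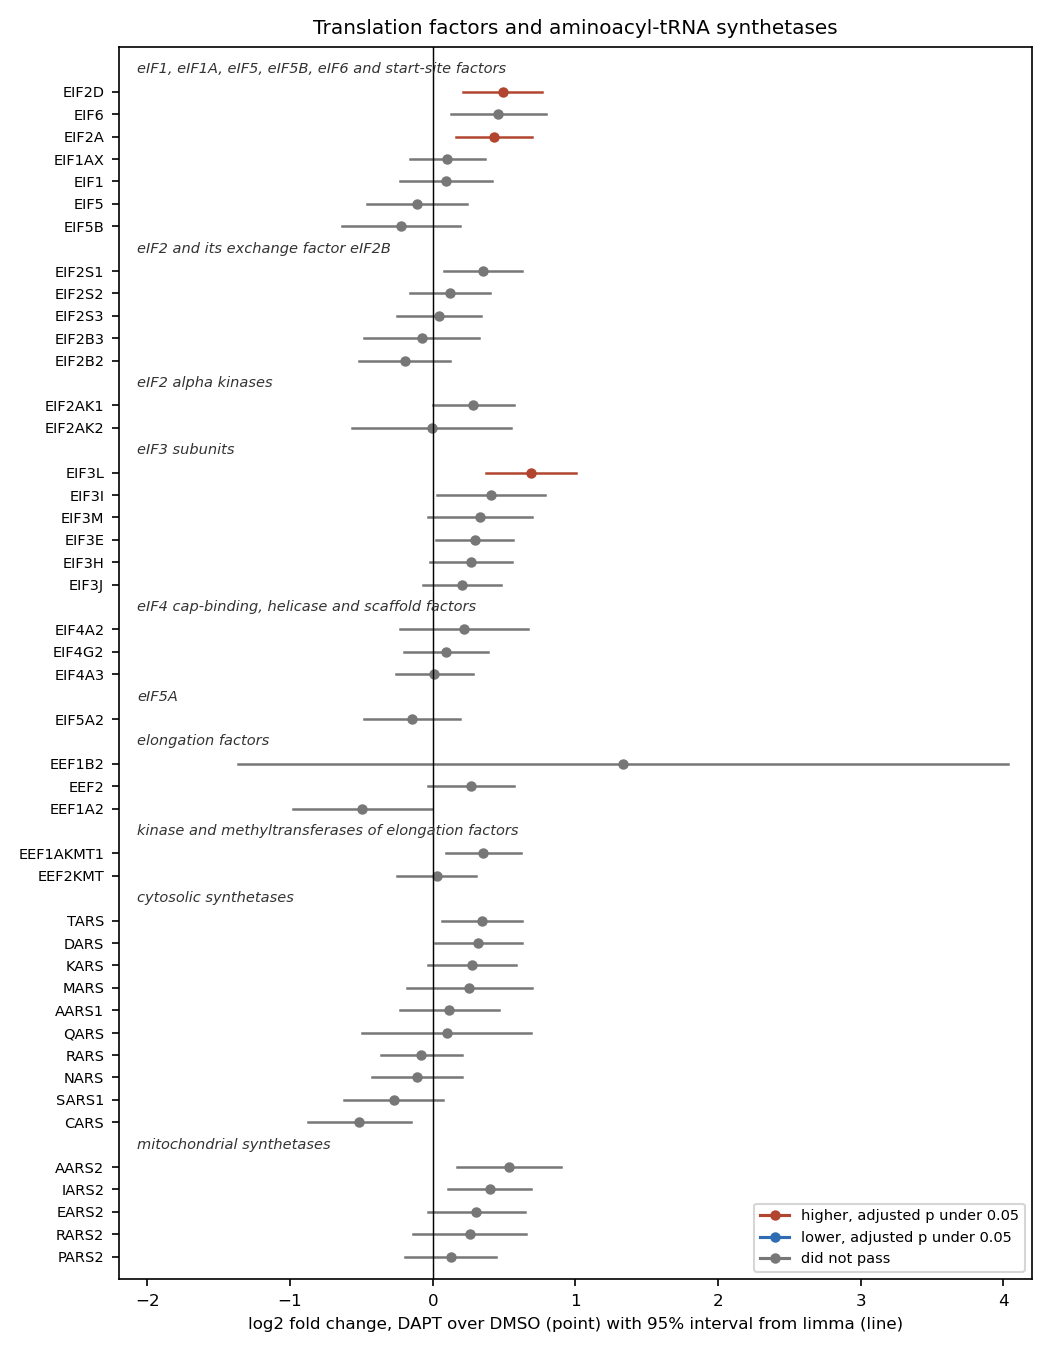
Log2 fold change of DAPT over DMSO for each of the 44 genes, with its 95% interval from limma, grouped by role and ordered within a role. The 3 genes past the threshold are in red, 42 of the 44 intervals lie between -1 and 1, and EEF1B2 has the widest interval.

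A mixed set of factors for start-site choice, subunit joining and tRNA delivery held 2 of the 3 genes that rose, out of 7 measured. Over all features 12.4% were higher. EIF2D, which places tRNA on the small subunit without eIF2 and takes part in ribosome recycling, gave a signal of 7.12 and 6.74 in DMSO and of 9.54 and 9.93 in DAPT, in multiples of each array's 75th percentile, as for all signals here. Both DAPT arrays were above both DMSO arrays, and the log2 fold change was 0.49 ± 0.10 (SE, n = 2 arrays per group, limma, adjusted p = 0.0337). Its 4 probes lay between 0.49 and 0.61. EIF2A, another factor that can deliver initiator tRNA and despite its name is no subunit of eIF2, stood at 2.41 and 2.47 in DMSO and at 3.31 and 3.26 in DAPT. The arrays of a group nearly coincided and the groups did not overlap, with a log2 fold change of 0.43 ± 0.099 (SE, limma, adjusted p = 0.0419). EIF2A had only 1 probe, so its value could not be compared with that of another probe.

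Both of these calls sit near the threshold. They ended with quantile normalization (adjusted p = 0.0618 for EIF2D and 0.0592 for EIF2A), with the authors' values (0.0501 and 0.0624), with no filter on dim probes (0.0549 and 0.0663) and when any single array was left out (0.0695 to 0.241 for EIF2D, 0.0933 to 0.269 for EIF2A).

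The other 5 factors of this set did not pass. EIF6, which binds the large subunit and keeps it from joining too early, stood at 6.95 and 7.81 in DMSO and at 9.60 and 10.7 in DAPT. The groups did not overlap, and the log2 fold change of 0.46 ± 0.12 missed the threshold (SE, limma, adjusted p = 0.0628). Its other probes were at 0.23 and 0.27, and the mean of its probes gave 0.32 (limma, adjusted p = 0.0972). EIF1 and EIF1AX, which hold the scanning complex in its open form, were at 0.092 and 0.10, with 95% intervals of -0.23 to 0.42 and -0.16 to 0.36. EIF5, the activator of eIF2's GTP hydrolysis, was at -0.11, and EIF5B, the GTPase of subunit joining, at -0.22. The probes of EIF1 differed in sign, at -0.13 and 0.092.

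**Figure D2:**
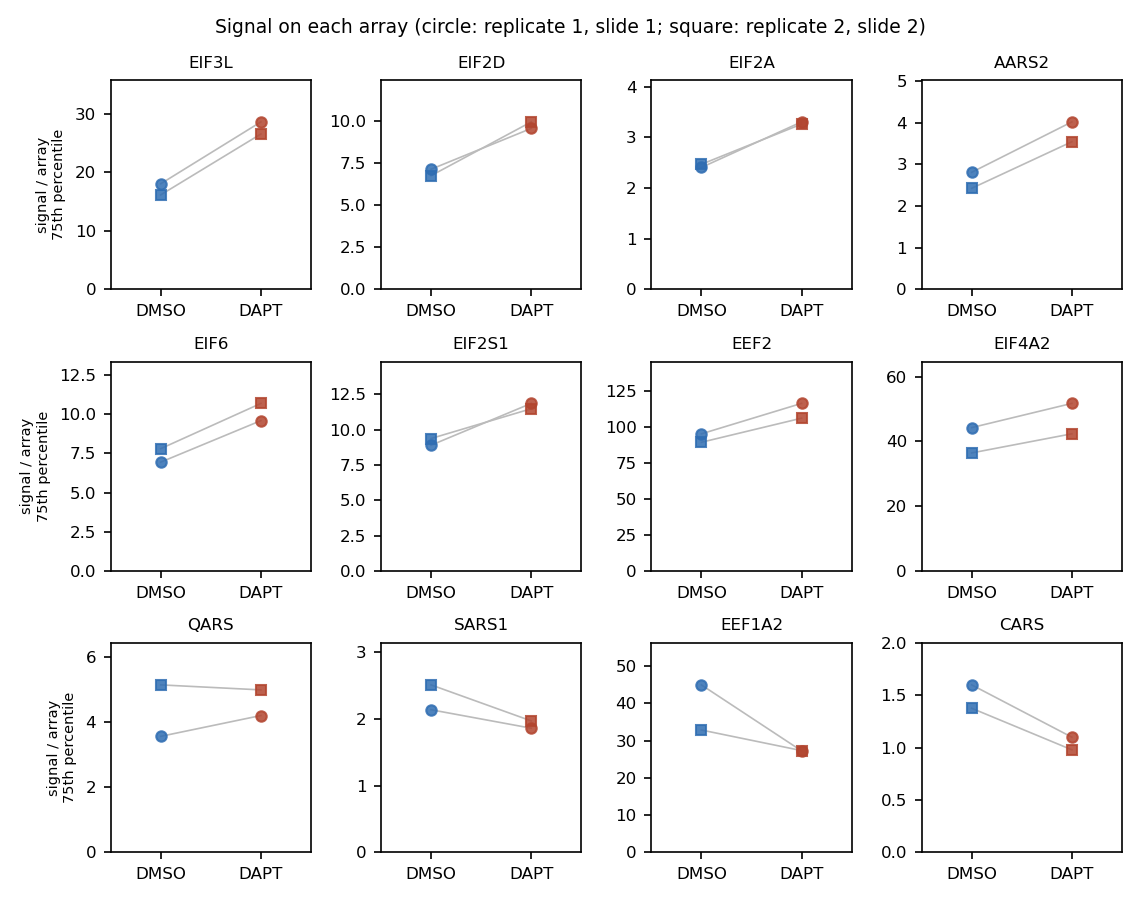
Signal of 12 members on each array, as a multiple of that array's 75th percentile, with the axis of each panel starting at 0. Lines join the DMSO and DAPT arrays of 1 slide. EIF3L, EIF2D and EIF2A are higher on both DAPT arrays, while QARS differs more between the DMSO arrays (3.57 and 5.15) than between the groups.

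No gene of the eIF2 complex and its exchange factor eIF2B passed in limma, out of 5 measured. Over all features 12.4% passed as higher and 13.1% as lower. An unadjusted p under 0.05 was seen for 1 of the 5, next to 38.8% of all features. That gene was EIF2S1, which encodes eIF2α, the subunit that stress kinases phosphorylate. The arrays read 8.90 and 9.38 for DMSO and 11.9 and 11.5 for DAPT. Both DAPT arrays were higher, with a log2 fold change of 0.35 ± 0.10 (SE, limma, adjusted p = 0.0734). EIF2S2 and EIF2S3, the β and γ subunits, were at 0.12 and 0.045. The eIF2B subunits EIF2B2 and EIF2B3, which reload eIF2 with GTP, were at -0.20 and -0.076, and the 95% interval of EIF2B2 ran from -0.52 to 0.12.

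Of the kinases of eIF2α, 2 were measured and none passed in limma, where 12.4% of all features were higher and 13.1% lower. At an unadjusted p under 0.05 there was 1, next to 38.8% of all features. EIF2AK1, the haem-regulated kinase HRI, stood at 3.35 and 3.11 in DMSO and at 4.01 and 3.85 in DAPT, a log2 fold change of 0.28 ± 0.11 (SE, limma, adjusted p = 0.128). EIF2AK2, the double-stranded RNA kinase PKR, stood at 3.03 and 2.49 in DMSO and at 3.21 and 2.32 in DAPT, so that the arrays of slide 1 were the higher ones in both groups. Its log2 fold change was -0.0080 ± 0.21. Its dimmer probe disagreed, at 0.205 and 0.223 in DMSO against 0.107 and 0.119 in DAPT, a log2 fold change of -0.93 (adjusted p = 0.00818 in limma with every probe tested). The size of the EIF2AK2 difference therefore depends on the probe, and with the mean of both probes it was lower (log2 fold change -0.47, adjusted p = 0.0482).

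The 6 measured subunits of eIF3, the large scaffold that holds the small subunit, the messenger and the other factors together, all had estimates above 0. This held in each of the 14 alternative analyses, though those that change only the filter, the prior or the block leave the estimates unchanged. Of the 6, 1 passed. Over all features 56.9% had an estimate above 0 and 12.4% passed as higher. EIF3L, a subunit with a PCI domain, gave 18.0 and 16.1 in DMSO and 28.6 and 26.5 in DAPT. Both DAPT arrays were well above both DMSO arrays. The log2 fold change was 0.69 ± 0.12 (SE, limma, adjusted p = 0.0196), a ratio of 1.61, and a second probe was at 0.78. The call was kept in 11 of the 14 alternatives and ended without DMSO replicate 2 (adjusted p = 0.0595), DAPT replicate 1 (0.138) or DAPT replicate 2 (0.101).

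The other eIF3 subunits lay closer together. EIF3I, a WD-repeat subunit, stood at 25.8 and 29.6 in DMSO and at 33.9 and 39.6 in DAPT, a log2 fold change of 0.41 ± 0.14 (SE, limma, adjusted p = 0.109). EIF3M, EIF3E, EIF3H and EIF3J were at 0.33, 0.29, 0.27 and 0.20. For all 6 subunits the groups of arrays did not overlap, as for 65.6% of all features. The median of the 6 was 0.31, with 0.33 on slide 1 and 0.32 on slide 2.

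None of the 3 measured eIF4 genes passed in limma, where 12.4% of all features were higher and 13.1% lower. None had an unadjusted p under 0.05, next to 38.8% of all features. EIF4A2, a helicase that unwinds the messenger's leader, stood at 44.3 and 36.4 in DMSO and at 51.7 and 42.4 in DAPT. The slides differed more than the groups, and the log2 fold change was 0.22 ± 0.17 (SE, limma, adjusted p = 0.402). The gene table lists EIF4A1 as an older name of this entry, so the symbol may stand for a related gene. EIF4A3, the helicase of the exon junction complex, was at 39.6 and 38.6 in DMSO and at 40.3 and 38.6 in DAPT. Its log2 fold change was 0.012, with a 95% interval of -0.26 to 0.28. EIF4G2, a scaffold used in cap-independent initiation, was at 0.092 with an interval of -0.20 to 0.39.

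EIF5A2, a form of eIF5A, which eases peptide bond formation at difficult sequences and carries the modified residue hypusine, stood at 19.0 and 22.3 in DMSO and at 18.7 and 18.4 in DAPT. The log2 fold change was -0.14 ± 0.13 (SE, limma, adjusted p = 0.465), and its probes ran from -0.26 to 0.14.

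Among the 3 elongation factors none passed in limma, where 12.4% of all features were higher and 13.1% lower. At an unadjusted p under 0.05 there was 1, next to 38.8% of all features. EEF1A2, the form of the tRNA-delivering factor known from neurons and muscle in mammals, stood at 44.9 and 32.8 in DMSO and at 27.2 and 27.3 in DAPT. Both DAPT arrays were lower, but the DMSO arrays lay far apart, and the log2 fold change was -0.49 ± 0.18 (SE, limma, adjusted p = 0.125), with -0.72 on slide 1 and -0.27 on slide 2. Without DMSO replicate 2 it was -0.72 and passed (adjusted p = 0.0378), without DMSO replicate 1 it was -0.27 (0.221), and without DAPT replicate 1 or 2 it was -0.49 (0.337) or -0.50 (0.338). Its 4 probes ran from -0.53 to -0.11.

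EEF2, the translocase that moves the ribosome by one codon, stood at 95.1 and 89.3 in DMSO and at 116 and 106 in DAPT. The groups did not overlap, and the log2 fold change was 0.27 ± 0.11 (SE, limma, adjusted p = 0.161), but -0.0092 with quantile normalization. Its other probes lay between 0.33 and 0.38, and the mean of its probes gave 0.35 (limma, adjusted p = 0.0897). EEF1B2, an exchange factor for eEF1A, had a very dim probe, at 0.00749 and 0.0013 in DMSO and at 0.0136 and 0.00458 in DAPT. The groups overlapped and its 95% interval, -1.36 to 4.03, covered large changes in both directions. Of the methyltransferases, EEF1AKMT1, which acts on a lysine of eEF1A, was at 0.35 ± 0.098 (SE, limma, adjusted p = 0.0665), and EEF2KMT, which acts on eEF2, at 0.027.

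Cytosolic synthetases pointed both ways. Of 10 measured, 6 were above 0 and 4 below, where 56.9% of all features were above 0. None of the 10 passed in limma, where 12.4% of all features were higher and 13.1% lower. At an unadjusted p under 0.05 there were 3, next to 38.8% of all features. TARS, the threonine enzyme, stood at 8.87 and 8.90 in DMSO and at 10.9 and 11.7 in DAPT, a log2 fold change of 0.35 ± 0.10 (SE, limma, adjusted p = 0.0798). DARS and KARS, the aspartate and lysine enzymes and both parts of the multisynthetase complex, were at 0.32 and 0.27. CARS, the cysteine enzyme, stood at 1.60 and 1.38 in DMSO and at 1.10 and 0.980 in DAPT. Both DAPT arrays were lower, with a log2 fold change of -0.52 ± 0.13 (SE, limma, adjusted p = 0.0575), -0.54 on slide 1 and -0.49 on slide 2, and its other probe was at -0.55.

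The other 6 cytosolic enzymes had estimates between -0.27 and 0.26. SARS1, the serine enzyme, stood at 2.14 and 2.51 in DMSO and at 1.86 and 1.97 in DAPT, a log2 fold change of -0.27 ± 0.13 (SE, limma, adjusted p = 0.198). RARS and NARS, for arginine and asparagine, were at -0.079 and -0.11, and AARS1, for alanine, at 0.12. QARS, for glutamine, was at 0.097 with an interval of -0.49 to 0.69, wide because its DMSO arrays stood at 3.57 and 5.15. MARS, for methionine, was at 0.26, with probes from 0.017 to 0.26. All 10 intervals lay within a 2-fold change either way.

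Mitochondrial synthetases all had estimates above 0, in 5 of 5 genes on both slides. Over all features 56.9% were above 0, and 84.0% had the same sign on both slides. None of the 5 passed in limma, where 12.4% of all features were higher and 13.1% lower. At an unadjusted p under 0.05 there were 2, again next to 38.8% of all features. AARS2, for alanine, stood at 2.81 and 2.43 in DMSO and at 4.02 and 3.55 in DAPT. The groups did not overlap, and the log2 fold change was 0.53 ± 0.14 (SE, limma, adjusted p = 0.0548), with 0.37 at its other probe. IARS2, for isoleucine, stood at 3.51 and 3.56 in DMSO and at 4.45 and 4.89 in DAPT, a log2 fold change of 0.40 ± 0.11 (SE, limma, adjusted p = 0.0626). EARS2, RARS2 and PARS2, for glutamate, arginine and proline, were at 0.31, 0.26 and 0.12. The median was 0.31 for the mitochondrial enzymes and 0.11 for the cytosolic ones, a difference that was not tested. AARS2 and CARS also passed, higher and lower, with normexp background correction, with the mean of a gene's probes and with a trended prior. They did not pass with quantile normalization (adjusted p = 0.0754 for AARS2 and 0.0515 for CARS in limma). With no filter on dim probes they also did not pass (0.0830 and 0.0864). With the authors' values CARS passed (0.0496) and AARS2 did not (0.0854). With median scaling AARS2 passed (0.0334) and CARS did not (0.0552). With any single array left out, the log2 fold change was 0.43 to 0.64 for AARS2 and -0.62 to -0.41 for CARS.

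**Figure D3:**
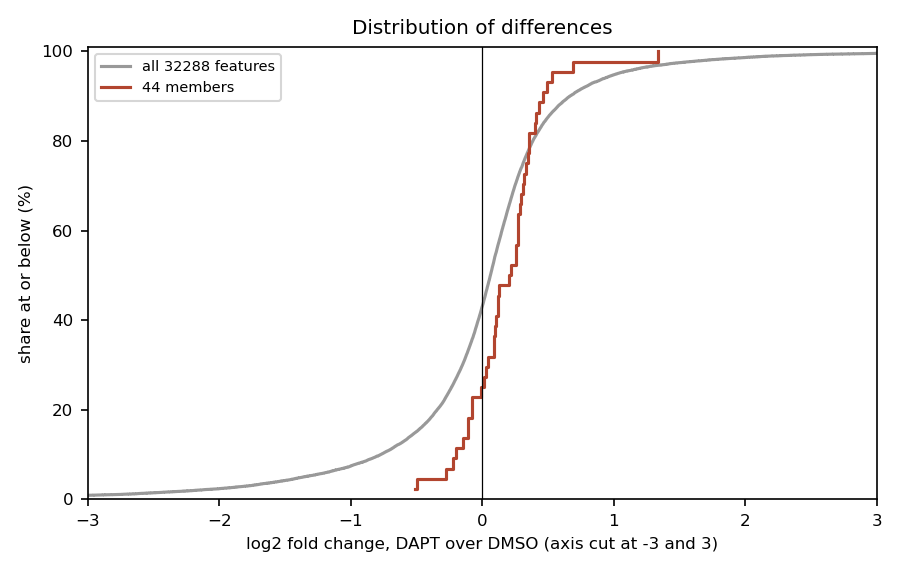
Cumulative share of genes or features (vertical axis, in percent) at or below each log2 fold change of DAPT over DMSO. The members' curve is steeper than that of all 32288 features, with a median of 0.21 against 0.061 and 1 member past a 2-fold change.

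Slide 1 carried both arrays of replicate 1, and slide 2 both arrays of replicate 2. Within the slides the members' median was 0.22 and 0.20, and 40 of 44 members had the same sign on both, against 84.0% of all features. The median gap between the slides' estimates was 0.074 for the members and 0.14 for all features. With the slide as a block, 13 members were higher and 1 lower, where 21.2% of all features were higher and 18.6% lower. All 3 calls were kept. The added genes were AARS2, EIF6, EIF3I, IARS2, EEF1AKMT1, EIF2S1, TARS, EIF3M, DARS and EEF1B2 on the higher side and CARS on the lower (adjusted p = 0.0133 to 0.0491 in limma). The EEF1B2 probe was very dim and well above background on only 3 arrays, so it entered the test through 1 group only. Its log2 fold change was 1.34, but 0.18 with normexp background correction and 0.074 without DMSO replicate 2.

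**Figure D4:**
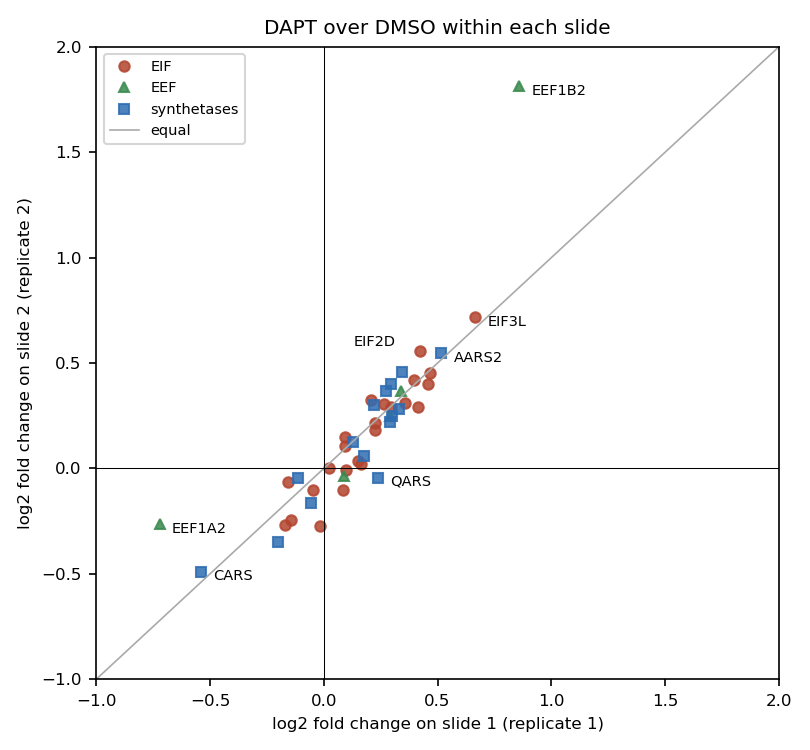
Log2 fold change of DAPT over DMSO on slide 1 (horizontal axis) and slide 2 (vertical axis) for the 44 genes, with the line of equal values. Most points lie near the line, and EEF1B2 (0.86 and 1.81) and EEF1A2 (-0.72 and -0.27) lie farthest from it.

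Genes that act around this machinery were taken from 6 lists, in which far fewer genes were measured than listed. In the list of eIF2α phosphatases, ATF4 and its targets, 8 of 20 entries were measured, none of them a phosphatase. Of these 8 genes 3 fell and 1 rose, with a median of -0.53. Over all features 13.1% were lower and 12.4% higher. CHAC1, which degrades glutathione, stood at 9.39 and 11.2 in DMSO and at 3.07 and 3.03 in DAPT, a log2 fold change of -1.75 ± 0.13 (SE, limma, adjusted p = 0.00288), and its 4 probes ran from -2.11 to -1.75. PSPH, the last enzyme of serine synthesis, was at -1.15 ± 0.11 (adjusted p = 0.00484). ASNS, asparagine synthetase, was at -0.99 ± 0.19 (adjusted p = 0.0254), a call that ended without DMSO replicate 2 (0.0663), DAPT replicate 1 (0.111) or DAPT replicate 2 (0.0570). ATF4 itself was at -0.31 and did not pass (adjusted p = 0.0898). SLC7A5, an importer of large neutral amino acids, rose from 1.24 and 1.15 to 5.77 and 4.61, a log2 fold change of 2.12 ± 0.15 (SE, limma, adjusted p = 0.00268), with probes from 1.33 to 2.12. NARS, which charges tRNA with the product of ASNS, was at -0.11, with a 95% interval of -0.42 to 0.21.

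In the other 5 lists, with 2, 10, 3, 4 and 7 genes measured, 3 genes rose, next to 12.4% of all features. PABPC1, the poly(A)-binding protein that bridges the messenger's tail to eIF4G, stood at 33.9 and 41.4 in DMSO and at 83.7 and 83.1 in DAPT. The groups lay far apart, with a log2 fold change of 1.15 ± 0.14 (SE, limma, adjusted p = 0.00828), and its 4 probes ran from 1.15 to 1.36. It was the only one of 10 other initiation, termination and recycling factors to pass. DEPTOR, an inhibitory partner of the kinase mTOR, was dim but rose from 0.0511 and 0.0536 to 0.217 and 0.222, a log2 fold change of 2.07 ± 0.10 (SE, limma, adjusted p = 0.00141), and all 3 of its probes were above 0. The other 3 measured genes of mTORC1 signalling, AKT1, PDPK1 and RPS6KB1, were between -0.0094 and 0.021. SEPSECS, which makes selenocysteine on its tRNA, rose by 0.61 ± 0.11 on the log2 scale (adjusted p = 0.0227), a call that ended without DMSO replicate 2 (0.0692), DAPT replicate 1 (0.166) or DAPT replicate 2 (0.128). FARSB, a subunit of the phenylalanine synthetase, was at 0.50 and did not pass (adjusted p = 0.138). None of 3 mitochondrial translation factors and none of 7 ribosome synthesis genes passed in limma. In each list 1 had an unadjusted p under 0.05, next to 38.8% of all features. The lists' medians were 0.10 and 0.28.

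**Figure D5:**
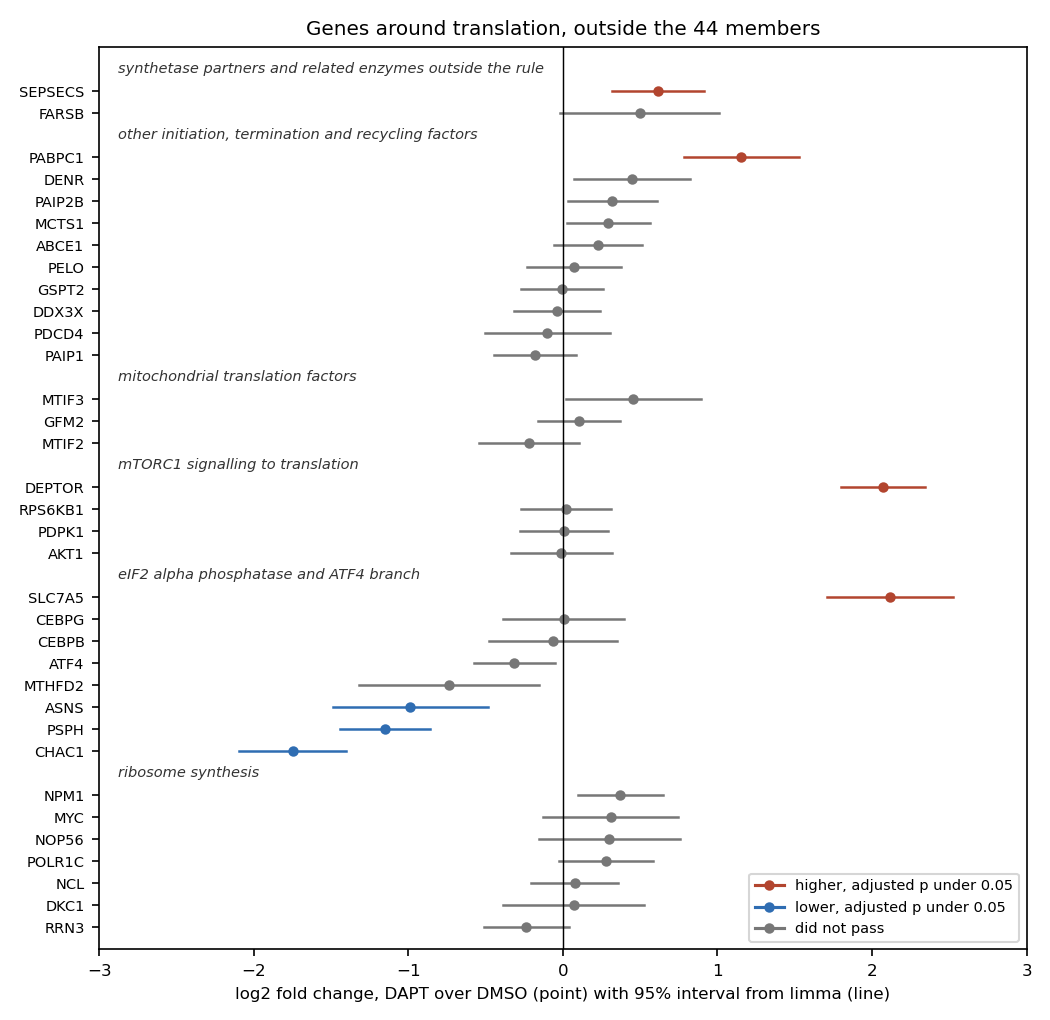
Log2 fold change of DAPT over DMSO with its 95% interval from limma for 34 measured genes around the translation machinery, by list. PABPC1, DEPTOR, SEPSECS and SLC7A5 are higher (red), and CHAC1, PSPH and ASNS are lower (blue).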

How the data were processed

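RNA of 4 culture samples, 2 with DAPT and 2 with DMSO, was measured on 1-colour Agilent chicken arrays. Per the file headers, Agilent Feature Extraction 11.5.1.1 made the deposited spot intensity values, which are linear, with local background already removed in the processed signal. In the authors' value table each intensity is multiplied by 1 factor per array (1.41 to 1.51), for a reason not given in the sources used here, and that table served as an alternative.

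Control spots and outlier-flagged spots (4 to 8 per array) were left out. None was saturated. Each array was scaled to the 75th percentile of its processed signal, 1412 to 1604. Spots of a probe were averaged on the log2 scale. A feature was tested if well above background on both DAPT or both DMSO arrays, which kept 32288 of 37050. All 44 genes passed, 43 of them well above background on all 4 arrays. A flagged spot removed 5 features.

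Accessions were named through the chicken RefSeq table of GRCg7b, used for names only, since the arrays refer to galGal3. Of 43603 probes 27.4% matched. DAPT was compared with DMSO by limma 3.58.1 (R 4.3.3), and p-values were adjusted by Benjamini-Hochberg across every tested feature. The fit was also run on simulated data with independent normal noise and no slide effect, which cannot show how it behaves on these arrays. Full values were given for up to 10 called genes in each direction and for a fixed set of factors (EIF2S1, the EIF2AK kinases, EIF4A2, EIF6, EEF1A2 and EEF2), and in the lists for up to 4 called genes. Array values of AARS2, IARS2, EIF3I, TARS, CARS, SARS1, QARS, EIF4A3, EIF5A2 and EEF1B2 were added after their values were seen, as were ATF4, NARS, FARSB and the mTORC1 genes without a call. Members and lists were chosen with earlier results of these data known.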

Additional observations from a re-analysis of the deposited data

How the results depend on the processing

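The count of 3 genes higher and 0 lower moved with most settings. It was 5 and 1 with normexp background correction, 1 and 0 with quantile normalization, and 1 and 1 with the authors' values. With no filter it was 1 and 0, with the mean of a gene's probes 4 and 2, and with a trended robust prior 10 and 1. When a 1.5-fold change was also required it was 1 and 0. Over all 32288 features, 3794 were higher and 3758 lower with normexp, 3988 and 4188 with quantile normalization, and 3366 and 4681 with the authors' values. With a trended robust prior these counts were 4748 and 4596, and with a 1.5-fold change 3208 and 3714. With no filter they were 3160 and 3634 of 37043, and with the mean of a gene's probes 4093 and 4286 of 32292. With the slide as a block, which is also the replicate block, 13 and 1 were called, and 12864 of all features against 8224. The labels state no pairing. Leaving out each array gave 0 to 1 higher, 0 to 1 lower and 3380 to 6381 features in all; with 1 array left in a group, that array is assumed to vary like the others. The members' median of 0.21 was 0.11 with quantile normalization and 0.15 with the authors' values, and between 0.16 and 0.26 elsewhere. With quantile normalization 28 of 44 members were above 0. No call of a named gene changed sign in any alternative run. Runs that change only the filter, the prior or the block leave the estimates unchanged, so they could not change a sign. The number of arrays limits the precision: the median standard error of a member was 0.12.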
